A study of Mus musculus with 22 samples.

Results

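The 42 genes described here are the contractile and regulatory genes of smooth muscle, from the actins and myosins to the channels, receptors and transcription factors that control them. They were chosen by name, and all 42 were found among 26202 gene symbols in the count table of a study of the embryonic mouse trachea. RNA had been sequenced from whole tracheas at E11.5, of Wnt5a f/f controls (5 libraries) and of Dermo1Cre; Wnt5a f/f mutants (4 libraries), and from cells sorted at E13.5. The sorted cells all carried the gamma SMA eGFP reporter, which marks smooth muscle, and were divided into epithelium (stained for EpCAM), muscle (GFP positive) and chondroblasts (negative for both). Control epithelium, muscle and chondroblasts have 2 libraries each and chondroblasts of Notum 150/150 mutants have 3. The control samples of the sorted cells are labelled Bmp4 f/f or Notum 300/300, and which of these genotypes a given library had cannot be told from its column name. Dermo1Cre is a recombinase of the mesenchyme and does not act in the epithelium. Each sample pooled 5 tracheas. Libraries are lettered within a group, and for the sorted controls A carries the earlier and B the later of the dates in the column names, while all Notum mutant libraries carry the later date. Mutants B and C of Notum have 1 identification number in common, and whether they came from separate animals is not given in the sources used here.

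Smooth muscle contracts when calcium enters the cell and activates myosin light chain kinase, which phosphorylates the regulatory light chain of smooth muscle myosin so that myosin filaments can pull on actin filaments anchored at dense bodies and adhesion plaques. In the trachea this tissue forms the trachealis, the dorsal band that joins the open ends of the cartilage rings. Many of its genes are controlled by serum response factor, which binds a short DNA element named the CArG box and is switched to muscle genes by myocardin, its muscle-restricted partner, or by the more widely expressed myocardin-related factors.

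Total counts ran from 6880660 to 21678177 per library, so that 3 counts, taken as the limit of detection, correspond to 0.138 to 0.436 CPM (counts scaled to equal library size). Levels below are CPM scaled over 18 libraries, and p-values are those of edgeR's quasi-likelihood test, adjusted by Benjamini and Hochberg's method over all genes tested. The summed level of 6 epithelial markers was 2810 and 3280 CPM in sorted epithelium against 42.1 and 45.2 CPM in muscle, and that of 6 cartilage markers was 2500 and 2310 CPM in chondroblasts against 776 and 1720 CPM in muscle, so that the muscle libraries also held RNA of cartilage genes. The summed level of 8 skeletal muscle markers was 980 CPM in muscle A and 79.5 CPM in muscle B, with Myog at 452 and 33.4 CPM. The erythroid markers summed to 31200 CPM in chondroblast A and 704 CPM in chondroblast B. The part of these differences in the results was not tested, and the counts of called genes are given with and without these libraries. The targeted genes gave no clear check of the labels, since Wnt5a measured 57.7 to 162 CPM in the 5 controls and 46.5 to 127 CPM in the 4 Wnt5a mutants, and Notum 13.8 and 86.1 CPM in control chondroblasts and 13.9 to 35.6 CPM in Notum mutants.

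RNA of each of the 42 genes was found in at least 1 muscle library. For 35 of the 42 genes the mean was at least 2 times that of the next population. The share of all genes at this ratio was not computed, so the count alone does not set the members apart. Scaled to transcript length, the most abundant member in muscle was Acta2, which encodes smooth muscle alpha-actin, at 2990 CPM per kb. It was followed by the myosin light chain genes Myl9 and Myl6 at 2810 and 2450 CPM per kb and by Actg2, smooth muscle gamma-actin, at 1520 CPM per kb. The smooth muscle myosin heavy chain gene Myh11 stood at 273 CPM per kb and its kinase gene Mylk at 158 CPM per kb. The lowest members were the intermediate filament gene Synm, at 0.803 CPM per kb, and the calcium channel gene Cacna1c, at 0.338 CPM per kb. The ranges of Acta2, Myl9 and Myl6 per kb over the 2 muscle libraries overlapped, so their order is within the spread between these libraries. In bulk libraries, fewer cells of a type and less RNA per cell cannot be told apart.

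**Figure D1:**
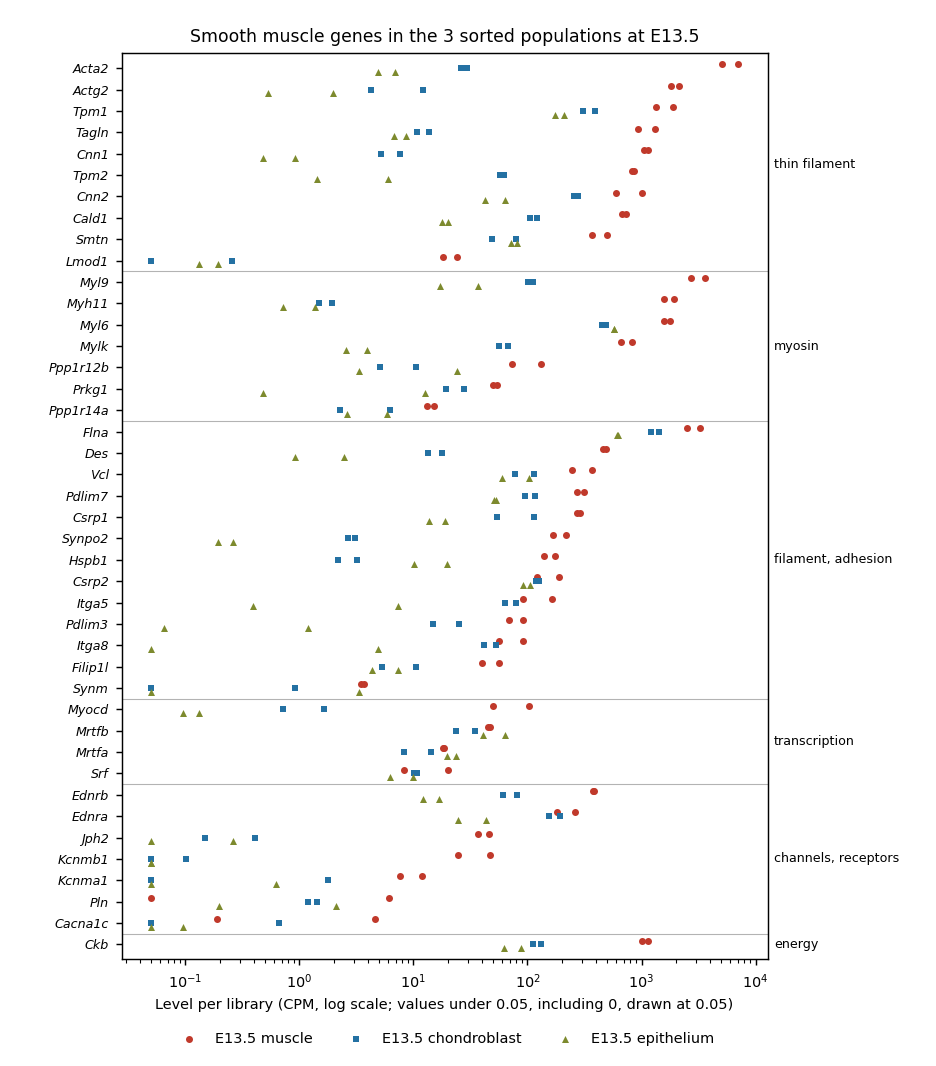
Level of each of the 42 smooth muscle genes in CPM on a log axis, with 1 point for each E13.5 control library of muscle (circles), chondroblasts (squares) and epithelium (triangles), ordered by role and by the muscle mean. The muscle points of Myh11, Acta2, Actg2 and Cnn1 lie more than 100-fold above those of the other populations, while those of Srf, Mrtfa, Mrtfb and Csrp2 overlap with them or lie close to them.

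Selectivity for muscle, taken as the muscle mean over the higher of the chondroblast and epithelial means, ranged from 0.841 for Mrtfa to 1020 for Myh11. It was at least 100 for 7 genes (Myh11, Kcnmb1, Actg2, Acta2, Cnn1, Jph2 and Lmod1, of which Kcnmb1 rests on 2 counts in chondroblasts and Lmod1 on at most 5), 10 to 100 for 9 (Tagln, Synpo2, Myocd, Des, Myl9, Tpm2, Mylk, Kcnma1 and Hspb1), 2 to 10 for 19, and 1 to 2 for 5 (Itga5, Itga8, Srf, Ednra and Csrp2). Among the 19, the ratios of Pln and Cacna1c rest on muscle A alone. For Mrtfb and Mrtfa the highest mean was that of epithelium. Of all 13687 genes tested in the sorted cells, 1.16% reached a ratio of 10. Against chondroblasts, 41 of the 42 members passed the filter on low values, 6 of them (Lmod1, Myocd, Kcnmb1, Kcnma1, Synm and Jph2) only through their level in muscle. At an adjusted p under 0.05, 16 members were higher in muscle and 0 were lower, where 0.132% of all genes tested were higher. Every muscle library was above every chondroblast library for 37 of the 41 members, against 18.7% of all genes. The 16 made up most of the 18 genes called between the 2 populations, and the other two were Dstn and Chrdl1. The list had been drawn up with such results known, so this share is no independent evidence. Against epithelium 26 members were higher and 0 lower, with 2.41% of all genes higher. The same 6 members passed the filter only through muscle there, so that Myocd, Kcnmb1 and Jph2, which are among the 26, could be tested only because they were high in muscle. The median log2 fold change of the 41 members was 2.66 against chondroblasts and 4.11 against epithelium, where the medians of all genes were -0.00 and 0.03.

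With 2 libraries a side the number of calls against chondroblasts leaned on each library. It was 4 without muscle A, without muscle B or without chondroblast B, and in each case these were Acta2, Myh11, Cnn1 and Tagln. Without chondroblast A it was 2, Acta2 and Myh11. DESeq2's Wald test called 28 members and 254 genes in all. With a term for the date the number was 16. Within dates, muscle was above chondroblasts for 42 of the 42 members between the A libraries and for 40 between the B libraries, the exceptions being Srf and Pln, where 46.5% and 49.5% of all genes tested were higher in muscle.

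Among the 10 genes of the thin filament and its regulators, 7 were called against chondroblasts and 9 against epithelium. Acta2 (chromosome 19, bases 34241090 to 34255590 of GRCm38) measured 7040 and 5130 CPM in muscle, 29.6 and 26.1 CPM in chondroblasts and 4.89 and 6.93 CPM in epithelium. No value of one population came near those of another, and the log2 fold change was 7.79 against chondroblasts (standard error 0.30, adjusted p = 0.000759) and 10.01 against epithelium (standard error 0.33, adjusted p = 0.000427). Actg2 (chromosome 6, bases 83512905 to 83536265), the gene of the gamma-actin after which the sorting reporter is named, measured 2150 and 1820 CPM in muscle, 4.24 and 12.1 CPM in chondroblasts and 0.527 and 1.96 CPM in epithelium. Its contrast is therefore tied to the gate, and the ratio of muscle to chondroblasts was 508 between the A libraries and 150 between the B libraries. Calponin 1 (Cnn1), which binds actin and restrains the myosin motor, measured 1150 and 1060 CPM in muscle against 5.16 and 7.70 CPM in chondroblasts. Transgelin (Tagln), an actin-bundling calponin relative and early marker of the lineage, measured 1300 and 928 CPM against 13.6 and 10.7 CPM. Their log2 fold changes against chondroblasts were 7.45 (standard error 0.38) and 6.53 (standard error 0.31). Other thin filament members were closer between populations. Tropomyosin 1 (Tpm1), which lies along the actin filament, was 2.22 higher on the log2 scale in muscle than in chondroblasts (adjusted p = 0.0483), caldesmon (Cald1) 2.66 higher (adjusted p = 0.0101) and smoothelin (Smtn) 2.77 higher (adjusted p = 0.0496). With the highest entry of each symbol alone the calls of Tpm1 and Smtn were lost (both adjusted p = 0.187). Calponin 2 (Cnn2), at 1010 and 593 CPM in muscle and 279 and 258 CPM in chondroblasts, did not pass (log2 fold change 1.60, adjusted p = 0.336). Tropomyosin 2 (Tpm2) did not pass either, although its 864 and 823 CPM in muscle were far from its 57.2 and 62.8 CPM in chondroblasts (log2 fold change 3.83, standard error 0.59, adjusted p = 0.152). Over the alternative settings its log2 fold change ran from 3.81 to 4.11, and whether it was called depended on the setting. Leiomodin 1 (Lmod1), which nucleates actin filaments in smooth muscle, measured 24.2 and 18 CPM in muscle and 0.255 CPM and 0 in chondroblasts, and its log2 difference of 7.24 carried a standard error of 1.74.

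Of the 7 genes of myosin and its regulation, 4 were called against each of the other populations, and these were the same 4, Myh11, Myl6, Myl9 and Mylk. Myh11 (chromosome 16, bases 14194535 to 14291372) measured 1930 and 1590 CPM in muscle, 1.94 and 1.49 CPM in chondroblasts and 0.719 and 1.37 CPM in epithelium. It was the most selective of the 42 members by the ratio of means, 1030 times higher than in chondroblasts by the fit (approximate 95% interval 9.22 to 10.78 on the log2 scale, adjusted p = 0.000759). The regulatory light chain gene Myl9 measured 3620 and 2710 CPM in muscle against 111 and 101 CPM in chondroblasts, and its kinase gene Mylk 826 and 663 CPM against 55.9 and 67.4 CPM. These were 4.92 and 3.61 higher on the log2 scale (adjusted p = 0.0156 and 0.0142). The essential light chain gene Myl6, which also serves non-muscle myosin, was 1.85 higher (adjusted p = 0.0156), but with the highest entry of its symbol alone it was 0.89 higher than in chondroblasts (adjusted p = 0.424) and 0.82 higher than in epithelium (adjusted p = 0.088). In epithelium, at 575 and 579 CPM, it exceeded its chondroblast level of 490 and 446 CPM. The other 3 genes act on myosin phosphatase or on relaxation, and none of them passed the adjustment against chondroblasts or epithelium. Ppp1r12b, a targeting subunit of myosin phosphatase, measured 132 and 73.2 CPM in muscle and 10.6 and 5.08 CPM in chondroblasts (log2 fold change 3.72, standard error 0.99, adjusted p = 0.552). Ppp1r14a, which inhibits the phosphatase, measured 15.0 and 13.1 CPM against 2.25 and 6.20 CPM, and Prkg1, the cGMP-dependent kinase of relaxation, 53.6 and 50.3 CPM against 19.3 and 28.0 CPM.

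The 13 genes of intermediate filaments, adhesion and scaffolds held 3 calls against chondroblasts and 7 against epithelium. Desmin (Des), the muscle intermediate filament, measured 455 and 489 CPM in muscle, a mean of 15.7 ± 3.08 CPM (SD, n = 2) in chondroblasts and 2.44 and 0.915 CPM in epithelium, and its log2 fold change against chondroblasts was 4.93 (standard error 0.45, adjusted p = 0.0251). Synaptopodin 2 (Synpo2), an actin-bundling protein of the Z-disc and dense body, measured 219 and 166 CPM against 3.07 and 2.69 CPM in chondroblasts (log2 fold change 6.08, standard error 0.37). Hspb1, a small heat shock protein that binds actin filaments, measured 140 and 174 CPM against 3.22 and 2.17 CPM (log2 fold change 5.87, standard error 0.51), and its next highest population was epithelium, at 10.2 and 19.5 CPM. The actin crosslinker filamin A (Flna) and the adhesion plaque protein vinculin (Vcl) were abundant in all 3 populations. Flna measured 3250 and 2490 CPM in muscle, 1430 and 1210 CPM in chondroblasts and 612 and 617 CPM in epithelium, without overlap, and was 1.14 higher on the log2 scale than in chondroblasts (adjusted p = 0.153). The integrin chains Itga5 and Itga8, receptors for fibronectin and related matrix proteins, stood at 1.78 and 1.57 times their chondroblast means. Itga8 measured 91.9 and 56.1 CPM in muscle, 52.5 and 41.6 CPM in chondroblasts, and 4.93 CPM and 0 in epithelium. Of the LIM protein genes, Csrp1 was at 288 and 273 CPM in muscle and 54.2 and 114 CPM in chondroblasts. Csrp2 measured 189 and 121 CPM in muscle and 126 and 118 CPM in chondroblasts. Neither difference passed the adjustment. Vcl measured 371 and 244 CPM in muscle, 114 and 77.3 CPM in chondroblasts and 104 and 59.7 CPM in epithelium. Pdlim7, a PDZ and LIM domain protein of actin filaments, measured 310 and 273 CPM in muscle against 94.5 and 117 CPM in chondroblasts, and Pdlim3, its relative, 91.9 and 68.7 CPM against 25.3 and 14.9 CPM. Both were called against epithelium alone, and the call of Pdlim3 was lost without any 1 of the muscle or chondroblast libraries (adjusted p up to 0.143). Filip1l measured 55.9 and 39.9 CPM in muscle against 5.31 and 10.5 CPM in chondroblasts and was not called. Synemin (Synm) stayed at or under 3.72 CPM in each sorted control library.

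Of the 4 transcription factor genes, Myocd alone had muscle libraries far above both other populations. Myocardin (Myocd, chromosome 11, bases 65176561 to 65269989) measured 104 and 50 CPM in muscle, 0.715 and 1.64 CPM in chondroblasts and 0.0958 and 0.131 CPM in epithelium. It was called against epithelium (log2 fold change 9.34, standard error 0.95, adjusted p = 0.00679), a comparison it entered only through its level in muscle and in which the call was lost without muscle A (adjusted p = 0.0688), and missed the threshold against chondroblasts (6.05, standard error 0.79, adjusted p = 0.0942). Serum response factor (Srf) measured 20.2 and 8.33 CPM in muscle, 10.1 and 10.8 CPM in chondroblasts and 10 and 6.21 CPM in epithelium, and these ranges overlapped. Srf was 0.47 higher on the log2 scale in muscle than in chondroblasts (standard error 0.87), and it turned to -0.32 without muscle A. The myocardin-related factor genes Mrtfa and Mrtfb measured 18 and 18.4 CPM, and 46.5 and 45.4 CPM, in muscle. Epithelium held 19.8 and 23.5 CPM of Mrtfa and 40.9 and 63.9 CPM of Mrtfb, and the log2 fold changes of muscle against epithelium were -0.25 (standard error 0.64) and -0.19 (standard error 0.40). Srf, Mrtfa and Mrtfb each had an adjusted p of 1.0 against chondroblasts, and the approximate 95% intervals of their log2 fold changes reached 2.17, 1.97 and 1.47, so a higher level in muscle of that size could not be told from none.

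The promoter windows of the members were searched for the strict CArG box, the element bound by serum response factor, on both strands. RefSeq windows of GRCm38.p6, from 250 bases before to 50 bases after a transcript start, matched 37 of the 42 members, and no window was matched for Tagln, Actg2, Csrp2, Myocd and Myh11. Among the 37, 6 (16.2%) held a box, against 488 of 27025 symbols (1.81%) overall. The start used was not always the outermost one of the gene, and 14 of the 49 windows of members lay over 1000 bases from it, among them that of Myl6, 1136 bases inside the gene, and that of Filip1l, 196149 bases inside it. The 6 are shown with 20 bases on each side because they are the members whose windows carry the element through which myocardin and its relatives act on smooth muscle genes. Capitals mark the box and sequences run 5′ to 3′ on the strand of the gene.
Myl9 (chr2:156775283-156775332, plus strand): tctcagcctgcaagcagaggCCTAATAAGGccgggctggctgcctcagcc
Cnn2 (chr10:79988524-79988573, plus strand): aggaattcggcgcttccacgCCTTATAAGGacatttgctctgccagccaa
Myl6 (chr10:128493030-128493079, minus strand): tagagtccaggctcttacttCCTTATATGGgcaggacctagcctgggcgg
Vcl (chr14:20929151-20929200, plus strand): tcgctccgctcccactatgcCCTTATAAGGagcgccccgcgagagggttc
Filip1l (chr16:57549160-57549209, plus strand): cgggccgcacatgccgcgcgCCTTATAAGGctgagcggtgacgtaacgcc
Srf (chr17:46556195-46556264, minus strand): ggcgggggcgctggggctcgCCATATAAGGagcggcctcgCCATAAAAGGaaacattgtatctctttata
The box of Myl6 began 50 bases before its transcript start and that of Vcl 227 bases before it, and Srf, the gene of the factor itself, held a pair of boxes 82 and 62 bases before its start. Only 2 of these 6 genes, Myl9 and Myl6, were called against chondroblasts, and the strongly selective Acta2, Cnn1, Des and Synpo2 held no strict box in this window. A match is a description of letters in the window and not of a bound site.

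Of the 7 genes of channels, calcium handling and receptors, 6 were tested, 1 was called against chondroblasts and 4 against epithelium. Of the endothelin receptor genes, Ednrb was called against both populations and Ednra against epithelium alone, and the difference between the genes was not tested. Ednrb measured 385 and 379 CPM in muscle, 61.5 and 80.5 CPM in chondroblasts and 12.1 and 16.9 CPM in epithelium, and was 2.45 higher on the log2 scale than in chondroblasts (standard error 0.26, adjusted p = 0.0483). That call was lost with library size alone (adjusted p = 0.0524) and with the highest entry of the symbol (adjusted p = 0.82). Ednra measured 260 and 182 CPM in muscle and 193 and 154 CPM in chondroblasts, ranges that overlapped (log2 fold change 0.37, standard error 0.33). Junctophilin 2 (Jph2), which ties the sarcoplasmic reticulum to the plasma membrane, measured 36.7 and 46.1 CPM in muscle and 0.409 and 0.149 CPM in chondroblasts. Kcnmb1, the smooth muscle beta subunit of the large-conductance calcium-activated potassium channel, measured 46.5 and 24.7 CPM in muscle, 2 counts in chondroblast A and 0 counts in chondroblast B and in both epithelial libraries, so that muscle was at least 210-fold higher than epithelium taken at a floor of 3 counts per library. The calls of Kcnmb1 and Jph2 against epithelium were lost with a term for the date (adjusted p = 0.0561 and 0.0862). The pore gene of the potassium channel, Kcnma1, was low, at 12.0 and 7.70 CPM in muscle and 1.79 CPM and 0 in chondroblasts. Cacna1c, the voltage-gated channel through which calcium enters, did not pass the filter, at 4.62 and 0.189 CPM in muscle. Pln, the inhibitor of the sarcoplasmic calcium pump, was present in muscle A (6.10 CPM) and at 0 in muscle B. Muscle A was also the library with the higher summed level of skeletal muscle markers, and the part of this in the values of Pln and Cacna1c was not tested.

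Creatine kinase B (Ckb), which buffers ATP in contracting cells, measured 1140 and 1020 CPM in muscle, 111 and 131 CPM in chondroblasts and 88.5 and 62.6 CPM in epithelium. It was 3.17 higher on the log2 scale than in chondroblasts (standard error 0.24, adjusted p = 0.0136).

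**Figure D2:**
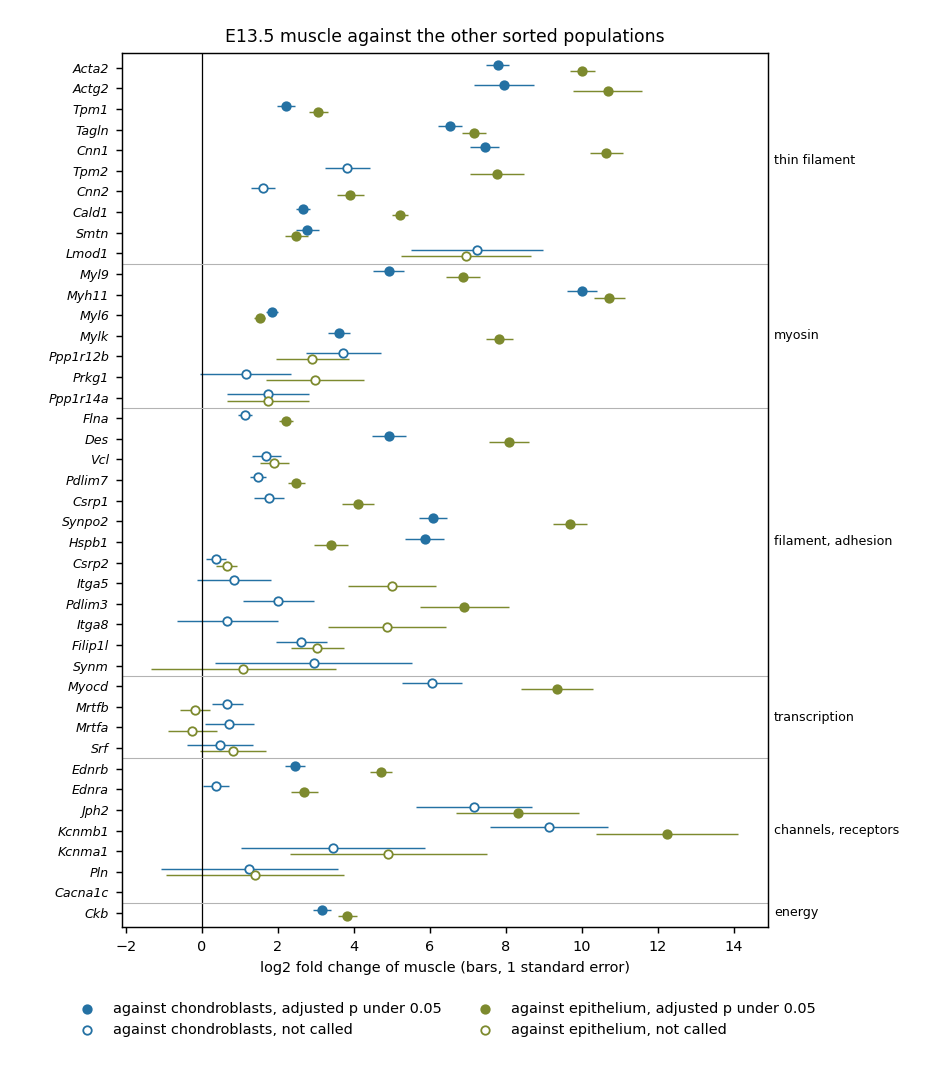
Log2 fold change of muscle against chondroblasts (blue) and epithelium (green) for the members tested, with bars of 1 standard error and filled points at an adjusted p under 0.05. The 16 calls against chondroblasts run from 1.85 (Myl6) to the point of Myh11, whose interval is 9.22 to 10.78. The points of Srf, Mrtfa and Mrtfb lie between -0.25 and 0.81 in the comparisons shown, and none of these is filled. Cacna1c was not tested and has no point.

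Further genes of the same machinery were examined as 2 lists. Among 22 further genes of the actin cytoskeleton and focal adhesion, 0 were called against chondroblasts (0.132% of all genes) and 6 were higher than in epithelium (2.41% of all genes), with a median log2 fold change of 0.78 and 1.52, against -0.00 and 0.03 for all genes. Those higher than in epithelium included Zyx, an adhesion plaque protein (log2 fold change 2.81), and Pgm5, a dystrophin-associated protein of adherens junctions (3.60). Of 20 genes of excitation and calcium, 18 were tested, 0 were called against chondroblasts and 1 was higher than in epithelium, the muscarinic receptor gene Chrm2 (log2 fold change 11.54, standard error 1.70).

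At E11.5 the smooth muscle genes were already detectable in control tracheas, but at very different fractions of their level in sorted E13.5 muscle. Whole tissue is compared here with sorted cells, so stage and sorting cannot be told apart. The E11.5 mean was under 5% of the muscle mean for 5 genes (Myh11, Actg2, Acta2, Cnn1 and Mylk), 5% to 10% for 9, 10% to 50% for 18, 50% to 100% for 9, and above it for Synm. At an adjusted p under 0.05, 27 members were higher in muscle and 0 lower, with 4.96% of all genes higher, and the median log2 fold change of the 41 members tested was 1.91 against -0.06 for all genes. By role these were 10 of 10 genes of the thin filament, 5 of 7 of myosin and its regulation, 8 of 13 of filaments, adhesion and scaffolds, 1 of 4 transcription factor genes, 2 of 6 of channels and receptors, and Ckb. Leaving out 1 library at a time gave 20 to 31 called members. Of the further genes, 9 of 22 of the actin cytoskeleton were higher in muscle and 1, the cytoplasmic actin gene Actb, was lower (log2 fold change -1.80), with 4.33% of all genes lower, and 5 of 20 of excitation and calcium were higher.

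Myh11 was the furthest from its later level, at 16.3, 15.9, 25.5, 7.90 and 9.40 CPM in controls A to E, which is 0.854% of the muscle mean. Actg2 measured 40.4, 41.3, 50.8, 12.1 and 25.2 CPM (1.71%) and Acta2 205, 246, 389, 125 and 170 CPM (3.73%). Their log2 fold changes of muscle against E11.5 trachea were 6.86 (standard error 0.38), 5.86 (standard error 0.52) and 4.74 (standard error 0.33), with adjusted p-values of 5.03e-06, 0.000108 and 2.61e-05. Control C was highest and control D lowest for all 3 of these genes and for Cnn1, at 85.3 and 25.4 CPM. Tagln had its highest value, 114 CPM, in control D.

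Myocd stood higher relative to the muscle mean than Acta2, Actg2, Myh11 and Cnn1. It measured 16.2, 27.9, 17.3, 13.9 and 16.3 CPM in the 5 controls, 23.8% of the muscle mean, and was 2.07 higher on the log2 scale in E13.5 muscle (standard error 0.39, adjusted p = 0.00869). Its muscle libraries differed, at 104 and 50 CPM, and without muscle A the log2 difference was 1.41 and the call was lost (adjusted p = 0.121), as it was with the highest entry of the symbol alone (adjusted p = 0.057). Srf, Mrtfa and Mrtfb stood at 78.8%, 75.1% and 95.1% of muscle, and none of these passed the test (adjusted p = 0.701, 0.535 and 0.956). Among the thin filament genes, Cald1 and Cnn2 were nearest to their later level, at 45.2% and 56.6% of muscle, and Cald1 was higher in muscle by 1.14 on the log2 scale (adjusted p = 0.000517). Cnn2 was 0.81 higher (adjusted p = 0.045), a call that was lost without muscle A (0.35, adjusted p = 0.412), without control A, B, D or E, without either chondroblast library and with library size alone (adjusted p = 0.0723). Ednrb stood at 55.3% with a wide spread, from 57.1 CPM in control B to 325 CPM in control A. The summed level of 5 neural and glial markers was also lowest in control B, at 58.0 CPM, against 186 to 223 CPM in controls A, C, D and E. The part of this in the Ednrb values was not tested. Relative to E13.5 control chondroblasts, the E11.5 mean of Acta2 was 816% and that of Myh11 874%, a difference that was not tested.

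**Figure D3:**
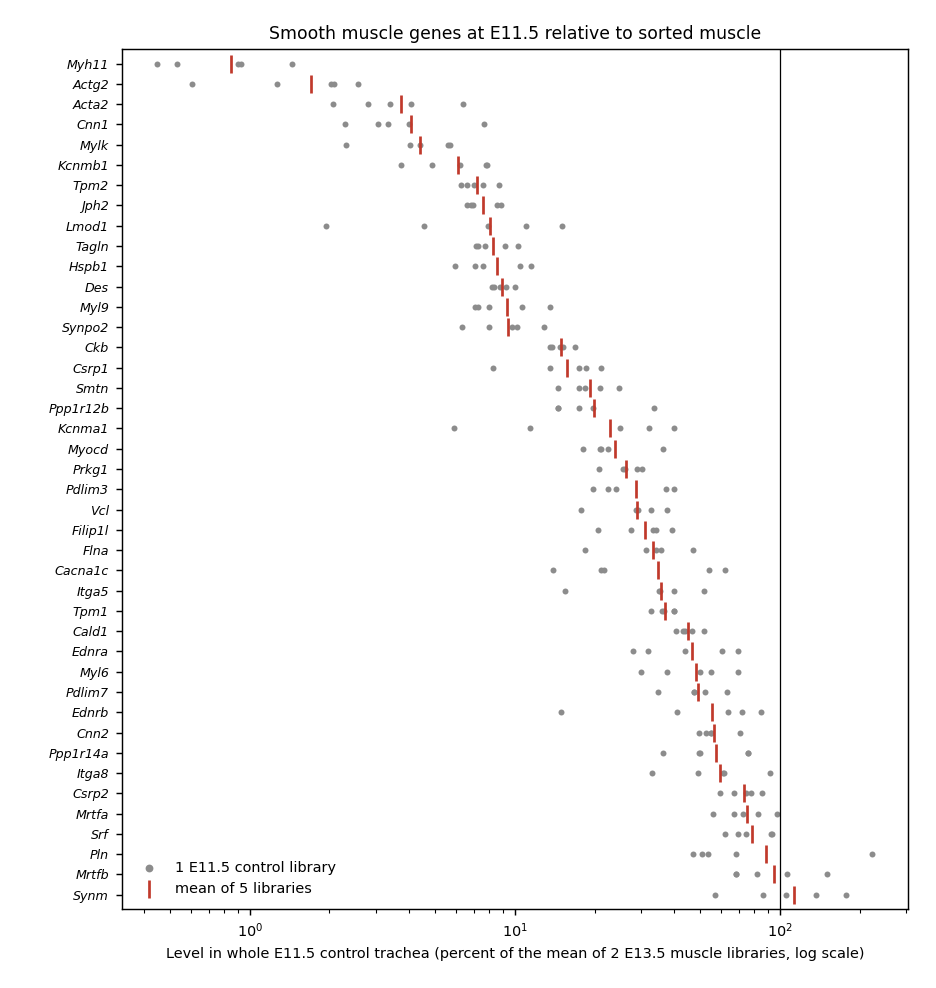
Level of each member in the whole E11.5 control trachea as a percentage of its mean in 2 E13.5 muscle libraries, on a log axis, with 1 grey point for each of 5 control libraries and a red mark at their mean. The genes run from Myh11 at 0.854% to Synm at 113%, and Myocd, at 23.8%, lies well above Acta2, at 3.73%.

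Between Wnt5a mutants and controls at E11.5, no smooth muscle gene was called. Of 41 members tested, 0 passed an adjusted p under 0.05, where 0.0136% of all genes did, and the median log2 fold change was -0.09 against -0.02 for all genes. The 2 genes called were the skeletal muscle regulators Myog and Myod1, higher in mutants by 2.42 and 1.91 on the log2 scale (adjusted p = 0.0133 and 0.0188). Leaving out 1 library at a time gave 0 to 3 genes called and 0 members. The summed level of the skeletal muscle markers was 37.0 to 127 CPM in controls and 169 to 220 CPM in mutants, and its part in the values of the members was not tested. At the study's thresholds for p and fold change (unadjusted p under 0.05, fold change over 1.5), 1 member was higher and 1 lower. Of all genes, 1.19% were higher and 2.53% lower. The study also required an FPKM (fragments scaled to library size and transcript length) over 1 in most replicates of a condition. That criterion was not applied here, and counts with it could differ. Synm, the lower member, had a control mean of 0.907 CPM per kb. Here and below, the thresholds of the study are those for p and fold change alone. At an unadjusted p under 0.05, 672 genes passed in all, and DESeq2 called 0 members and 40 genes at an adjusted p under 0.05. Among the further genes, 0 of 22 of the actin cytoskeleton and 0 of 19 of excitation and calcium were called by edgeR's test.

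The defining contractile genes overlapped between genotypes. Acta2 measured 343, 191, 373 and 320 CPM in mutants A to D, within the control range of 125 to 389 CPM, and its log2 fold change was 0.41 (standard error 0.29, approximate 95% interval -0.16 to 0.98). Myh11 measured 6.22, 11.4, 38.1 and 21.5 CPM, with both its lowest and its highest E11.5 value in a mutant, and Actg2 35.0, 24.8, 52.5 and 37.4 CPM. Myocd measured 6.98, 12.3, 21.9 and 18.9 CPM (log2 fold change -0.31, standard error 0.32). The intervals of these 4 genes hold no change as well as a change of 1.5-fold.

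Only Csrp1, Tpm2 and Des, of the 41 members, did not overlap between genotypes. Csrp1, a LIM protein of actin bundles, measured 59.4, 52.3, 23.2, 48.9 and 38.2 CPM in controls and 65.3, 91.1, 90.1 and 86.8 CPM in mutants, without overlap, and was 0.88 higher on the log2 scale (standard error 0.24, adjusted p = 0.927 in edgeR's test). Tpm2 measured 52.7 to 73.4 CPM in controls and 78.1 to 89.6 CPM in mutants (log2 fold change 0.41, adjusted p = 1.0 in edgeR's test), and Des 38.7 to 47.4 CPM in controls and 33.2 to 38.5 CPM in mutants (log2 fold change -0.28). Over the alternative settings the log2 fold change ran from 0.02 to 0.46 for Tpm2. It ran from 0.88 to 0.99 for Csrp1 and from -0.28 to -0.22 for Des. Genes with all mutants above all controls were 2 of the 41 members and 0.825% of all genes, and with all mutants below all controls 1 of 41 and 0.436%. Synm, low at 2.04 to 6.36 CPM in controls and 1.43 to 2.40 CPM in mutants, had a log2 fold change of -1.10 (adjusted p = 1.0 in edgeR's test) and overlapped. It did not pass the thresholds of the study without control D, mutant B or mutant D. Next in the order of p were Csrp2, the other LIM protein gene, at 92.3 to 133 CPM in controls and 113 to 172 CPM in mutants, and Hspb1, at 9.37 to 18.1 CPM in controls and 52.8, 8.97, 7.12 and 35.5 CPM in mutants. Both overlapped between genotypes.

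Mutant A stood apart from the other 8 E11.5 libraries. The log2 difference between long and short transcripts, relative to the mean of the libraries, was -0.69 in mutant A and -0.11 to 0.33 in the others. The long transcripts of Flna, Vcl and Itga5 were low in it, at 303, 36.9 and 9.88 CPM, against 527 to 1350, 54.4 to 115 and 19.7 to 65.5 CPM in controls. The Myh11 and Mylk values of mutant A were the lowest of the E11.5 libraries. Not every long transcript was low, since Synpo2, at 13.6 CPM, lay within its control range of 12.1 to 24.7 CPM. The part of transcript length in these values was not tested. Without mutant A, 0 members were called and 2 passed the thresholds of the study. The number at those thresholds was 5 without mutant C and 1 without control D or mutant D.

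**Figure D4:**
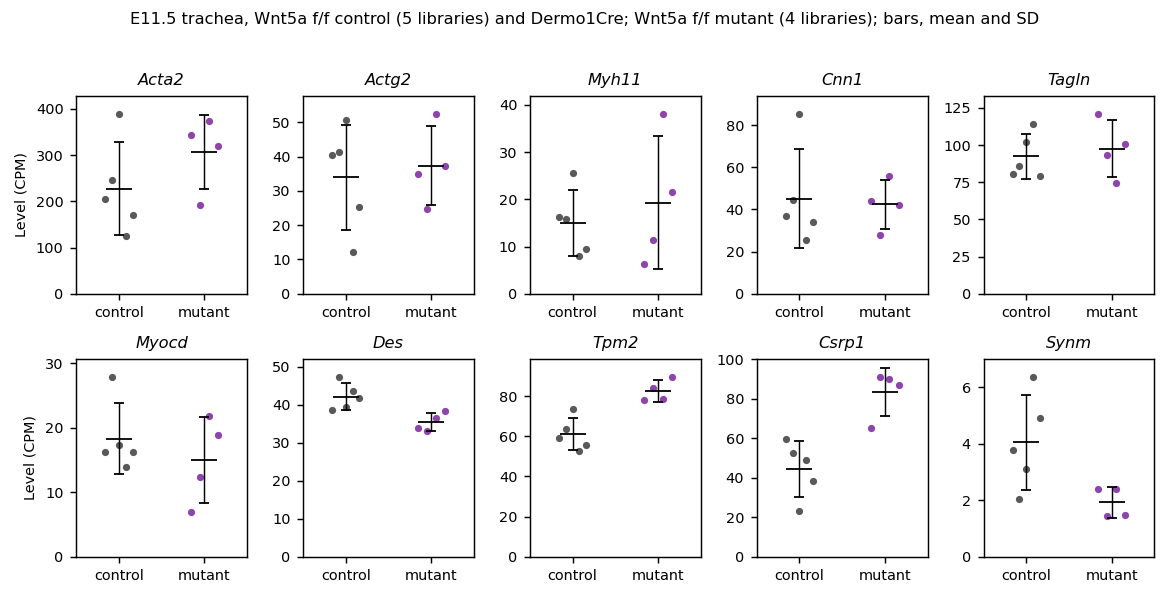
Level in CPM of 10 members in each E11.5 library, with controls in grey and Wnt5a mutants in purple and bars of the mean and SD. Acta2, Actg2, Myh11, Cnn1, Tagln and Myocd overlap between genotypes, while every mutant lies above every control for Tpm2 and Csrp1 and below for Des.

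In chondroblasts of Notum mutants, as in control chondroblasts, RNA of members selective for muscle, such as Acta2 and Cnn1, was low but measurable. RNA of less selective members, such as Flna and Myl6, was abundant in both. No member passed the adjustment against control chondroblasts, unless chondroblast A was left out or set apart by a term for the date. Of 38 members tested, 3 (Myocd, Synm and Jph2) passed the filter only through their level in mutants, and Lmod1, Kcnmb1, Kcnma1 and Cacna1c were not tested. By edgeR's test 0 members were called, as were 0 of all genes (0%), while 1762 genes had an unadjusted p under 0.05 and DESeq2 called 2 members, Flna and Hspb1, and 526 genes. At the thresholds of the study for p and fold change, without its FPKM criterion, 7 members were higher and 0 lower. Of all genes, 5.51% were higher and 2.90% lower. All mutant libraries were above both controls for 14 of 38 members and 17.2% of all genes, and below both for 2 members and 16.4% of all genes. The median log2 fold change was 0.27 against 0.02 for all genes.

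Hspb1 measured 3.22 and 2.17 CPM in controls and 16.6, 10.3 and 8.09 CPM in mutants A to C, a log2 difference of 2.12 (standard error 0.50, adjusted p = 0.259 in edgeR's test). Acta2 measured 29.6 and 26.1 CPM in controls and 51.2, 36.7 and 49.8 CPM in mutants (log2 fold change 0.73, standard error 0.21, adjusted p = 0.304 in edgeR's test). Both ranges were apart, while Acta2 in sorted muscle stood at 7040 and 5130 CPM. Cald1 measured 106 and 120 CPM in controls and 181, 128 and 209 CPM in mutants, and Mrtfa 14.3 and 8.22 CPM and 16.7, 29.0 and 18.6 CPM. In these 2 genes as well each mutant lay above both controls.

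Flna, with a log2 fold change of 0.46 (adjusted p = 0.259 in edgeR's test), was below the fold threshold at 1430 and 1210 CPM in controls and 1870, 1900 and 1640 CPM in mutants. Jph2 measured 0.409 and 0.149 CPM in controls and 2.69, 3.24 and 1.68 CPM in mutants. The summed level of 7 heart muscle markers was 6.54 and 11.6 CPM in controls and 86.5, 19.6 and 25.1 CPM in mutants, with Nkx2-5 at 0 in both control libraries and in mutant C and at 0.418 and 0.0982 CPM in mutants A and B. Its part in the Jph2 values was not tested. Ednrb measured 61.5 and 80.5 CPM in controls and 111, 91.6 and 125 CPM in mutants, and Ppp1r12b 10.6 and 5.08 CPM and 18.7, 18.1 and 17.1 CPM. Their log2 fold changes were 0.63 and 1.20 when entries of a symbol were summed, and turned to -0.05 and -0.25 with the highest entry of each symbol alone.

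Among the defining contractile genes, Cnn1 measured 5.16 and 7.70 CPM in controls and 12.6, 12.4 and 10.2 CPM in mutants, without overlap (log2 fold change 0.87, standard error 0.37). Actg2 measured 4.24 and 12.1 CPM in controls and 6.82, 8.84 and 7.11 CPM in mutants (log2 fold change -0.10, standard error 0.53). The log2 fold changes of Myl9 and Des were -0.02 and 0.05 (standard errors 0.19 and 0.31). The members with all mutants below both controls were Myl6 and Ednra, with log2 fold changes of -0.24 and -0.20. Of the further genes, 3 of 22 of the actin cytoskeleton and 4 of 18 of excitation and calcium were higher at the thresholds of the study, where 5.51% of all genes were. At those thresholds 0 were lower, against 2.90% of all genes, and 0 were called, as over all genes, the smallest adjusted p among those examined being that of Zyx (log2 fold change 1.02, adjusted p = 0.131).

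The Notum comparison depended on single libraries and on the date. All mutant libraries carry the later date and only chondroblast B among the controls does. A term for the date therefore leaves chondroblast B as the only control. It repeats the comparison without chondroblast A and is no second check. Within the later date, against chondroblast B alone, the mutant mean was 5.38 times for Hspb1, 1.76 times for Acta2, 1.44 times for Cald1 and 1.36 times for Ednrb. Other members were lower than chondroblast B or near it, among them Actg2 at 0.627 times, Mylk at 0.79 times and Myl9 at 1.03 times. Without chondroblast A, where the lone control is assumed to vary like the mutants, 7 members (Flna, Hspb1, Jph2, Mrtfb, Ppp1r12b, Smtn and Synm) were called at an adjusted p under 0.05 by edgeR's test, all of them higher, as were 12.5% of all genes. With a term for the date in the fit of the 5 libraries 7 of the 38 members were likewise called and higher, as were 1901 of the 14120 genes tested, and 18.4% of all genes were called in either direction. Without Notum mutant A, 2 members (Hspb1 and Jph2) passed the thresholds of the study, and without Notum mutant C 4 did. Jph2 and Synm had passed the filter in the fit of the 5 libraries only through their level in mutants. In chondroblast B they held 2 and 0 counts. A lower level of these genes in mutants could therefore not have been called, and their direction is no separate evidence. The log2 difference between long and short transcripts was -0.08 and -0.23 in controls A and B and 0.07 to 0.16 in the mutants, and its part in these results was not tested.

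**Figure D5:**
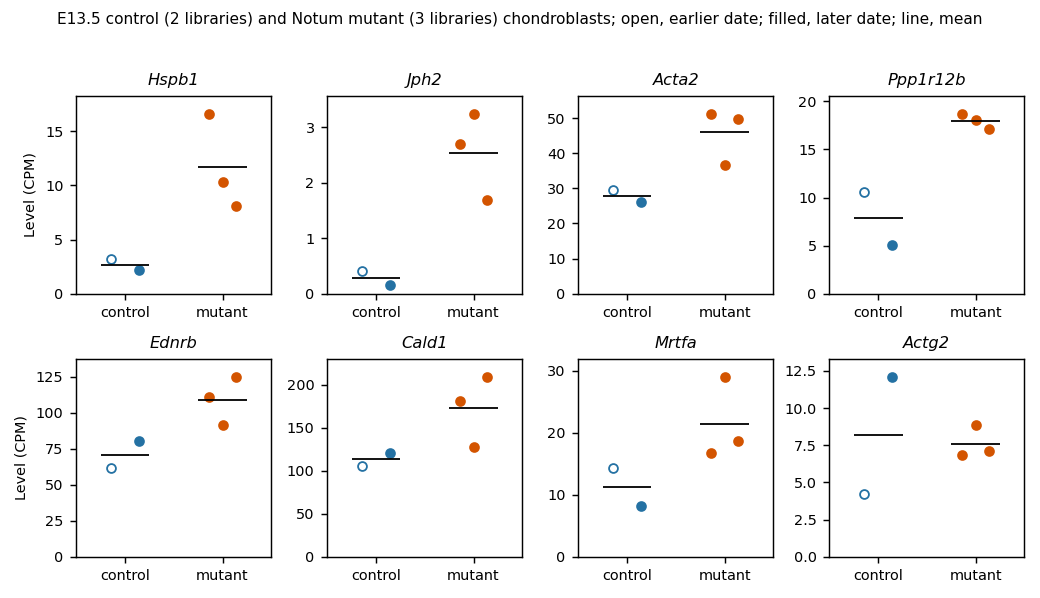
Level in CPM of the 7 members past the thresholds of the study for p and fold change, and of Actg2, in control and Notum mutant chondroblasts. An open point marks the earlier date, filled points the later date and a line the mean. Every mutant lies above both controls for the 7 members, while Actg2 mutants lie between the controls.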

How the data were processed

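RNA was measured in whole E11.5 tracheas and in cells sorted at E13.5 after TrypLE dissociation, amplified with the SMART-Seq v4 kit. The authors deposited expected counts (estimated counts, 56.0% of the values fractional) in 1 table whose 47248 entries carry gene symbols, without normalization and with libraries kept apart. The submitters' processing notes name Partek, limma and build mm10, and the study's methods name DESeq2 and Cufflinks. The aligner and counting tool are not given in the sources used here, so reads shared by near-identical genes cannot be traced. Of 22 columns, 18 matched 1 group by name and the other 4 could not be tied to a label and were left out. The labels list 3 samples of each sorted control and 4 Notum mutants. The sources used here do not give the litter of each column, so p-values measure the spread between these libraries.

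Entries were summed per symbol and rounded (9286 symbols had several entries, and summing hides transcript differences). Genes that reached 1 CPM in over 50% of any group's libraries were tested by edgeR 4.0.16 in R 4.3.3 (TMM, quasi-likelihood test, 2-sided, Benjamini-Hochberg), with the 3 sorted populations in 1 fit of 13687 genes, the E11.5 libraries in 1 of 14663, the chondroblasts in 1 of 14120, and the sorted controls with E11.5 controls in 1 of 14971. The standard error is the log2 fold change over the square root of F. The spread between replicates (biological coefficient of variation) was 66.8%, 34%, 35.9% and 53.6%. CPM per kb used the median transcript length of GENCODE M21 (GRCm38), which also gave gene positions. Limits at 3 counts cover counting error only, since the kit adds no molecular identifiers. The script was tested on simulated data.

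The E11.5 column names carry numbers, 4 of which occur in both genotypes. Deviations of same-numbered libraries from their group means correlated at 0.102 to 0.53, and those of differently numbered libraries at -0.323 to 0.219. These ranges overlap, so a pairing is not established, and the numbers were used as pairs only in an alternative fit with a block. The replicate numbers of the labels are not in the column names. The 42 members and the further lists were chosen with earlier results of these data known. Values per library are given for the 10 members with the largest difference of muscle from chondroblasts, the 4 transcription factor genes, those with the smallest p in each mutant comparison, and those needed to show a group. Alternatives were DESeq2 1.42.0, DESeq2's size factors, library size alone, no filter, the highest entry of a symbol, 18 libraries in 1 fit, a term for the date, the block, and leaving out each library.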

Additional observations from a re-analysis of the deposited data

Results flagged for a closer look

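Of 82 groups of 4 or 5 libraries tested by Dixon's criterion, 7 held a library far from the others, where chance alone marks about 5% of groups. Control C had the highest Cnn2 level, 568 CPM, with the next at 442 CPM and the lowest at 397 CPM. Control B had the highest Myocd level, 27.9 CPM, with the next at 17.3 CPM. Control E, the library with the lowest total, had the highest levels of Pln, 6.80 CPM with the next at 2.08 CPM, and of Ppp1r12b, 34.1 CPM with the next at 20.1 CPM. Its summed level of heart muscle markers was also the highest of the controls, at 346 CPM against 39.8 to 159 CPM, and Pln is known as a gene of heart as well as of smooth muscle. The part of this in the Pln value was not tested. Among the Wnt5a mutants, mutant C had the lowest Cald1 level, 286 CPM, with the next at 347 CPM. Mutant A, whose long transcripts were low, had the lowest Csrp1 level, 65.3 CPM with the next at 86.8 CPM, and the highest Ckb level, 204 CPM with the next at 135 CPM.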

How the results depend on the processing

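The 16 members called between muscle and chondroblasts became 28 with DESeq2's test and 27 without the filter, stood at 13 to 16 with other scalings, the highest entry of a symbol or a term for the date, and ranged from 2 to 15 when 1 library was left out. Against epithelium the 26 calls ranged from 19 to 30 in the same way, and against E11.5 trachea the 27 ranged from 20 to 31. For the Notum mutants the 0 calls became 2 with DESeq2's test, 7 with a term for the date (18.4% of all genes being called in that fit, in either direction) and 0 to 7 when a library was left out, and the 7 members past the thresholds of the study became 4 with 18 libraries in 1 fit and 2 to 9 when a library was left out. For the Wnt5a mutants the number called was 0 in each alternative, and the 2 members past the thresholds became 1 with 18 libraries in 1 fit and 1 to 5 when a library was left out. With the replicate block by column number, control E had no partner and formed a block of its own, so it did not inform the difference between genotypes. In that fit 0 members were called and 3 passed the thresholds, Itga8 being added to Csrp1 and Synm. The columns of the E13.5 libraries carry no replicate numbers, so their only pairing is by date, and the term for the date is the blocked fit there. In the Notum comparison that term leaves chondroblast B as the only control. Directions reversed for Ednrb (-0.05) and Ppp1r12b (-0.25) in Notum mutants and Prkg1 (-0.45) in muscle against chondroblasts with the highest entry of a symbol, and for Pln (-1.28) there with a term for the date. When a library was left out, muscle against E11.5 trachea ranged from -0.08 to 0.29 for Mrtfb, -8.50 to 1.13 for Pln, -0.47 to 0.82 for Srf and -0.38 to 0.01 for Synm. Likewise Pln ranged from -7.46 to 2.25 and Srf from -0.32 to 0.97 against chondroblasts, and against epithelium Pln ranged from -7.34 to 3.93 and Mrtfb from -0.46 to 0.16. The causes were not tested. Where a group was left with 1 library, that library was assumed to vary like the others. Members near 3 counts in a population, such as Lmod1, Kcnmb1 and Cacna1c, are limited by depth there.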
